A study of Homo sapiens with 14 samples.

Results

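Transcripts of 9 receptor tyrosine kinases were followed in PANC-1 cells, an established human pancreatic ductal carcinoma line, during stimulation with TGFb1 and its combination with acriflavine or valproate. The 9 genes were RET, EGFR, ERBB2, ERBB3, MET, AXL, FGFR1, EPHA2 and DDR1. They were chosen by name as well-known members of the family, with earlier results of these data known. RET was chosen in addition by its low value in the valproate arrays, so its values there are given as a description without a test. Each gene was represented by the probe set that had the highest mean over all 14 arrays among those assigned to that gene alone. The 9 genes were 9 of the 18129 genes so represented, and 8 of them were among the 10877 genes bright enough to be tested. The exception was ERBB3.

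All cells were of the same line, were grown in 10% serum, spent 24 h in 1% serum and were harvested after 48 h of treatment. The groups were untreated cells (control, 4 arrays), TGFb1 at 5 ng/ml (4 arrays), TGFb1 at the same dose with acriflavine at 2.5 µM (3 arrays) and TGFb1 at the same dose with sodium valproate at 2 mM (3 arrays). Acriflavine, a dye that blocks dimerisation of hypoxia-inducible factors, and valproate, an inhibitor of histone deacetylases, were given only together with TGFb1 in the arrays used here. Cells treated with acriflavine alone were not analysed here. The study asked whether acriflavine counters the epithelial-to-mesenchymal transition that TGFb1 induces in these cells.

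A receptor tyrosine kinase spans the plasma membrane, pairs with a second receptor when its ligand binds, and phosphorylates tyrosines that become docking sites for adaptor proteins. The adaptors pass the signal to the RAS-ERK and PI3K-AKT pathways, which drive growth, survival and movement. In pancreatic ductal carcinoma RAS itself is commonly mutated, and EGFR, MET and AXL have been studied there as receptors that feed or bypass that signal, while AXL is known as a receptor of mesenchymal-like tumour cells and ERBB3 as one of epithelial-like cells.

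The values are log2 intensities after RMA, so a difference of 1 is a 2-fold difference. They compare 1 probe set between groups and do not rank different genes against each other. The array medians lay between 7.16 and 7.21. Replicate 4 of TGFb1 (SD of its deviation from the group mean over genes 0.375), replicate 2 of TGFb1 (0.256) and replicate 4 of the control (0.250) stood apart from the other 11 arrays (0.0665 to 0.160). Same-numbered control and TGFb1 arrays deviated together (correlations of 0.359 to 0.705), so their differences are also given with the replicate number as a block. Arrays of different numbers were not compared, so these correlations cannot show that the numbers pair the arrays. All 7 epithelial markers were above the brightness limit, and their mean log2 intensity per array was 11.1 to 11.5 in the control, 10.3 to 10.5 with TGFb1, 11.4 to 11.5 with added acriflavine and 10.5 to 10.8 with added valproate. Endothelial markers were all below the limit (0 of 4 above it). Of the fibroblast or stellate genes 1 of 5, THY1, was above it, and the array means of that list were 5.18 to 5.29 in the control, 5.36 to 5.65 with TGFb1, 5.34 to 5.52 with acriflavine and 6.18 to 6.36 with valproate, where THY1 rose by 1.40 over TGFb1. Of the leukocyte genes 2 of 5 were above it, with PTPRC below, and their array means were 5.92 to 6.04, 6.04 to 6.35, 5.81 to 5.90 and 6.31 to 6.40 in the same order of groups. Both of these leukocyte genes, CD68 and LAPTM5, fell with acriflavine (median -0.91). Of the hepatocyte genes 2 of 3 were above it, with array means of 6.31 to 6.75 over all groups. Of the neural crest or neuroendocrine genes 3 of 4 were above it, with CHGA below, and their array means were 7.16 to 7.71. The part of these shifts in the results was not tested.

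Among the 8 receptors tested in TGFb1 versus control, 0 were higher and 1, EGFR, was lower, where 8.39% of all tested genes were higher and 9.97% were lower at an adjusted p of 0.05 (limma with Benjamini-Hochberg adjustment). Their median difference was -0.15, beside 0.00158 over all genes tested. With acriflavine added to TGFb1, AXL and EPHA2 were higher and 0 were lower, where 24.5% of all tested genes were higher and 19.1% lower. The median difference of the 8 receptors was 0.10, beside 0.03 over all tested genes. With valproate added to TGFb1, 1 of the 7 receptors other than RET and ERBB3 was higher (DDR1) and 0 were lower, where 15.1% of tested genes were higher and 16.2% lower, and the medians were 0.02 and -0.01. RET is left out of every count that involves the valproate arrays. The counts of receptors are small, and the shares over all genes of 8.39% to 24.5% are the background against which they stand.

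**Figure D1:**
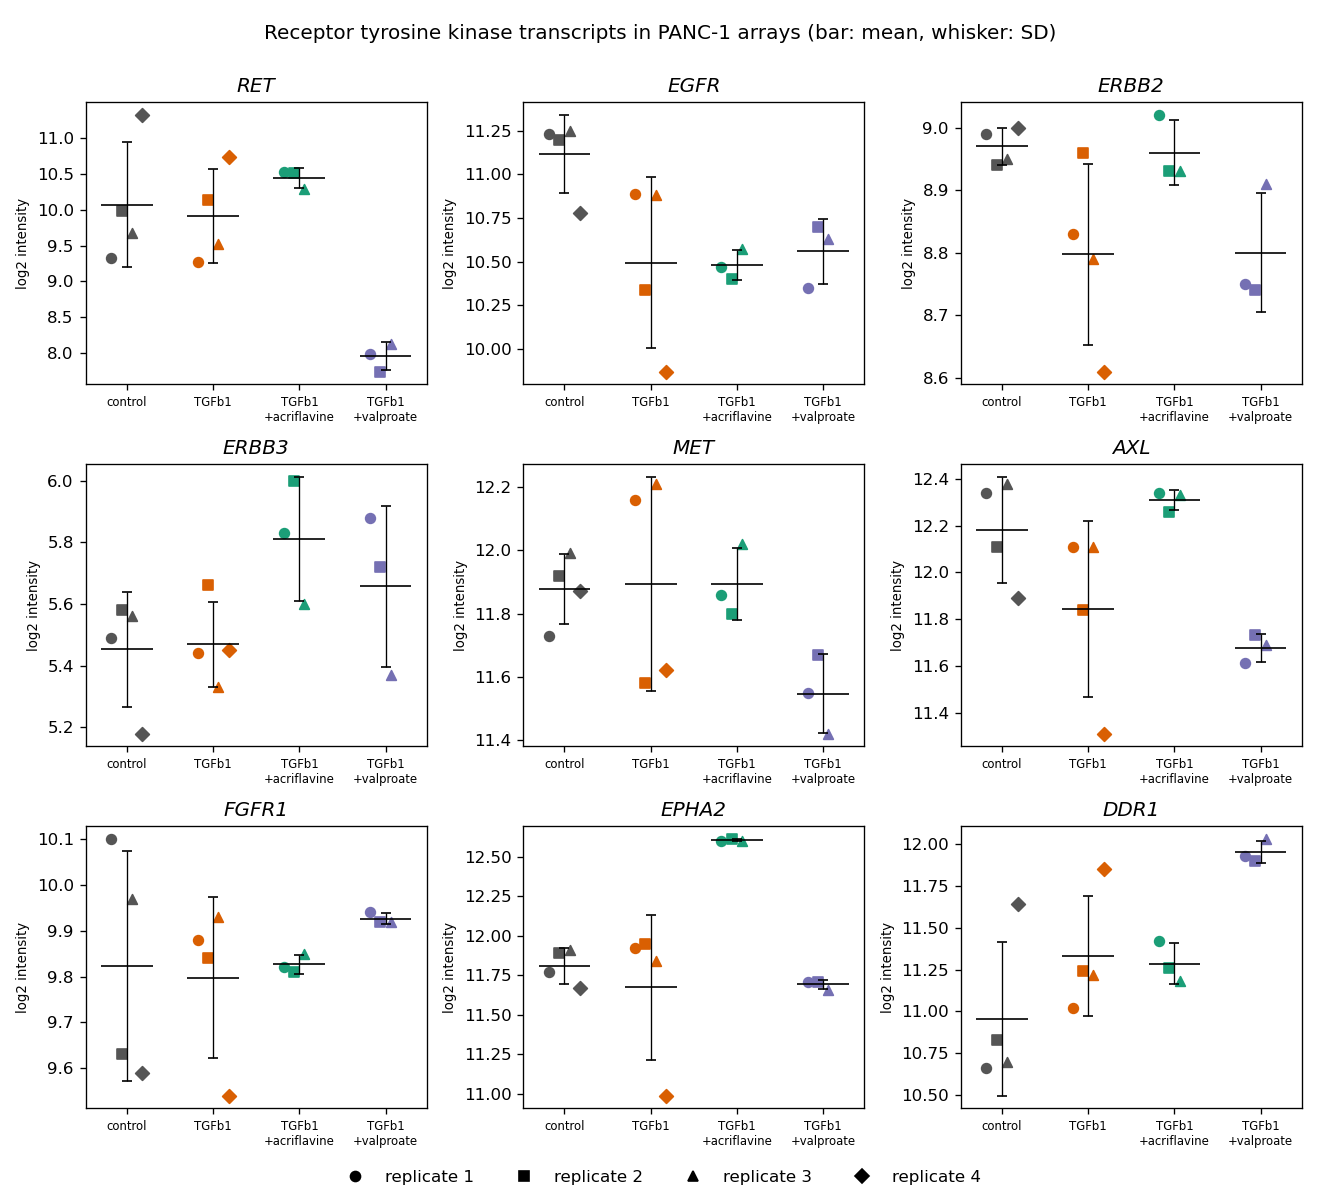
Log2 RMA intensity of the kept probe set of each receptor on every array, with 1 panel per gene and its own vertical axis, markers by replicate number, horizontal bars at the group means and whiskers of 1 SD. RET is low in the 3 valproate arrays, EPHA2 is high in the 3 acriflavine arrays, and the replicates 4 lie at an end of several groups.

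RET, the receptor of the GDNF family of neurotrophic factors, is printed with its promoter because it showed the greatest separation between groups of the 9 genes. Below are the 300 bases around its upstream RefSeq start, chr10:43076819-43077118 of GRCh38.p14 on the plus strand, and those of EPHA2, chr1:16156020-16156319 on the minus strand, whose transcript moved with the other agent. Each runs 5′ to 3′ from 250 bases before the start to 50 bases after it, and capitals mark GC boxes (GGGCGG or CCGCCC), the letters that SP1-family factors recognise.
RET: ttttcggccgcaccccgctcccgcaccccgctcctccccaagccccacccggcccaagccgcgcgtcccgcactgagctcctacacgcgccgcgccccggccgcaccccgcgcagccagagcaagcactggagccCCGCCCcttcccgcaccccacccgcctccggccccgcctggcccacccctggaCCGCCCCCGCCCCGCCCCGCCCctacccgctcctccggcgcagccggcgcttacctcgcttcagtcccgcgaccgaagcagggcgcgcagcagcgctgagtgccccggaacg
EPHA2: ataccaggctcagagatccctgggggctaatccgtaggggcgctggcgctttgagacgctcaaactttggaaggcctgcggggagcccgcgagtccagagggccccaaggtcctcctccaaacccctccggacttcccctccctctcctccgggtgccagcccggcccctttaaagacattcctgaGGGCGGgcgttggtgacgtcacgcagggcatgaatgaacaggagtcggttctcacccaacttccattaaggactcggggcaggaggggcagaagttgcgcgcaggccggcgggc

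The RET window holds 5 GC boxes, some of which share bases, and 41 CpG dinucleotides in a GC content of 78.7%. Of the 35116 promoter windows of that length in the table, 94.2% hold at most as many CpG dinucleotides. The EPHA2 window holds 1 GC box and 20 CpG dinucleotides (60.5% of windows hold at most as many), and 45.0% of all windows hold a GC box. Neither window holds the E-box that Snail and ZEB repressors bind (CAGGTG or CACCTG on either strand, in 20.6% of all windows) or an AP-1 site (TGANTCA, in 7.7%). RefSeq lists a second RET start whose window, chr10:43104515-43104814, holds 1 such E-box, 1 GC box and 10 CpG dinucleotides. Of the 17 windows of 7 receptors searched, an E-box was also found in 1 window of AXL and in 4 of the 8 windows of DDR1, and GC boxes were found in 3 copies in the first window of EGFR, in that of MET and in 1 window of DDR1. These matches describe letters in a window and not bound sites.

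RET was the receptor with the lowest values under valproate relative to the other groups. Its log2 intensity was 9.32, 9.98, 9.67 and 11.32 in control replicates 1 to 4, and 9.27, 10.14, 9.52 and 10.73 in those of TGFb1. It was 10.53, 10.51 and 10.29 with TGFb1 and acriflavine, and 7.99, 7.74 and 8.13 with TGFb1 and valproate. All 3 valproate arrays lay below every other array, and the acriflavine arrays lay inside the range of the control and TGFb1 arrays, whose replicates 4 were the highest of their groups.

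Valproate minus TGFb1 was -1.96 ± 0.402 (SE) log2 units for RET, a 3.89-fold lower intensity. The difference was -1.69 without both replicates 4 and -2.12 against the control (4.35-fold lower). The other 2 RET probe sets gave -1.51 and -1.34 against TGFb1. As these are bulk RNA samples, fewer cells that express a gene and less of its RNA per cell cannot be told apart.

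In comparisons that did not use the valproate arrays, RET was not called. TGFb1 minus control was -0.16 ± 0.372 (adjusted p = 0.817 by limma), with 1 of 4 same-numbered pairs up. Acriflavine with TGFb1 minus TGFb1 was 0.53 ± 0.402 (adjusted p = 0.312), and the other 2 probe sets gave 0.83 and 0.78. Without both replicates 4 this difference was 0.80 and passed (adjusted p = 0.00381), and against the control it was 0.37 with all arrays (adjusted p = 0.478) and 0.79 without them (adjusted p = 0.00416). The order of the group means was therefore acriflavine, control, TGFb1 and, apart from these, valproate. In the fit of group means alone the first 3 did not differ beyond their spread. With the replicate block, or with a term for the replicates 4, RET passed with acriflavine against TGFb1 and against the control. The numbers were not taken to pair the arrays in these comparisons.

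The ligands of RET act through GPI-anchored co-receptors of the GFRA family. All 4 measured GFRA genes were below the brightness limit, and GFRA1, the partner of GDNF, had group means of 5.36 to 5.71. Of the ligands, artemin (ARTN) was above the limit and was not called in any of the 3 main comparisons (-0.02, 0.10 and 0.05). NRTN (6.20 to 6.75) and PSPN (5.80 to 5.98) were dim. GDNF was not analysed here. GDF15, a stress cytokine that signals through RET and GFRAL, was at 13.6 ± 0.0977 (SD, n = 4) in the control and 12.7 ± 0.526 (n = 4) with TGFb1, a fall of 0.89 on the log2 scale (adjusted p = 0.00521 by limma), while its co-receptor GFRAL was among the dimmest of the genes looked at (3.40 to 3.56).

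EGFR, the receptor for EGF and TGF-alpha, was the only one of the 8 tested receptors called in TGFb1 versus control. Its log2 intensity was 11.23, 11.20, 11.25 and 10.78 in the control and 10.89, 10.34, 10.88 and 9.87 with TGFb1. With acriflavine it was 10.47, 10.40 and 10.57, and with valproate 10.35, 10.70 and 10.63. Control replicate 4 lay below both of the higher TGFb1 arrays, so these groups overlapped, but within each of the 4 same-numbered pairs the TGFb1 array was the lower one (-0.34, -0.86, -0.36 and -0.90).

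TGFb1 minus control was -0.62 ± 0.194 for EGFR, a 1.53-fold lower intensity (adjusted p = 0.0421 by limma). With the replicate block the adjusted p was 0.00265, and without both replicates 4 the difference was -0.52 (adjusted p = 0.0102). The call was lost with no brightness limit (adjusted p = 0.0526), with the mean of the 8 probe sets (-0.35, adjusted p = 0.118), when the fit held the 2 groups alone (adjusted p = 0.138), and without control replicate 1, 2 or 3 or TGFb1 replicate 2 or 4 (adjusted p of 0.0514 to 0.109). Of the 8 EGFR probe sets 7 had a negative difference and the remaining one, at 0.19, was at a mean of about 5 and dim.

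EGFR was not called with either agent against TGFb1. Acriflavine gave -0.01 ± 0.21 (adjusted p = 0.967) and valproate 0.07 ± 0.21 (adjusted p = 0.853) against TGFb1, and without both replicates 4 these were -0.22 and -0.14 and did not pass (adjusted p = 0.169 and 0.404). Against the control, EGFR was lower with TGFb1 and acriflavine (-0.63, adjusted p = 0.0238) and stood at -0.55 with TGFb1 and valproate (adjusted p = 0.0553; -0.66 and adjusted p = 0.00098 without both replicates 4). The call with acriflavine was lost without control replicate 1, 2 or 3 and without acriflavine replicate 1 or 2 (adjusted p of 0.053 to 0.0768). The control mean was thus the highest of the 4, and the 3 treated means, 10.5 to 10.6, did not differ beyond their spread.

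ERBB2, the partner receptor that has no known ligand of its own, varied little. It was at 8.99, 8.94, 8.95 and 9.0 in the control, 8.83, 8.96, 8.79 and 8.61 with TGFb1, 9.02, 8.93 and 8.93 with acriflavine and 8.75, 8.74 and 8.91 with valproate. TGFb1 minus control was -0.17 ± 0.0781 (adjusted p = 0.147), acriflavine minus TGFb1 0.16 ± 0.0843 (adjusted p = 0.135) and valproate minus TGFb1 0.00228 ± 0.0843 (adjusted p = 0.989), none of them called, although without TGFb1 replicate 2 the acriflavine difference passed. ERBB3, the kinase-impaired receptor of neuregulins, was too dim to be tested. It was at 5.18 to 5.58 in the control, 5.33 to 5.66 with TGFb1, 5.60 to 6.0 with acriflavine and 5.37 to 5.88 with valproate, so that all acriflavine arrays were at or above 5.60 and the highest control array was at 5.58. The other ERBB3 probe sets were dimmer and went the other way, with means of 4.23 and 4.11 with acriflavine against 4.33 and 4.18 in the control.

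**Figure D2:**
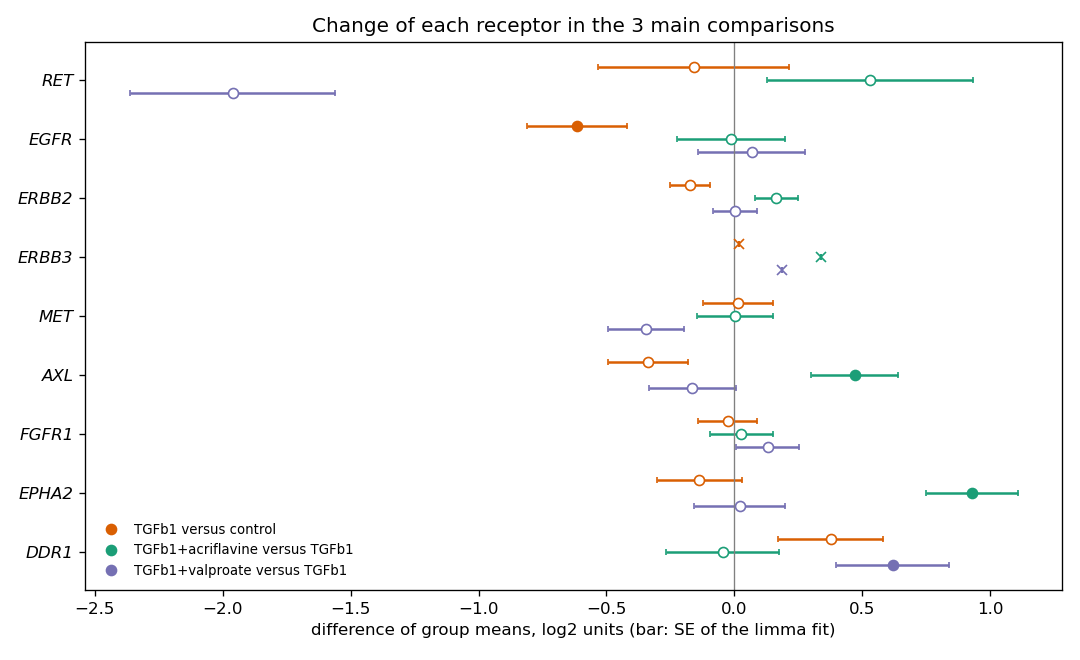
Difference of group means for each receptor in TGFb1 versus control, TGFb1 with acriflavine versus TGFb1 and TGFb1 with valproate versus TGFb1, on a log2 axis, with whiskers of 1 SE of the limma fit. Filled circles passed an adjusted p of 0.05, open circles did not or, for RET with valproate, are given without a test, and crosses mark ERBB3, which was not tested and has no SE; the filled points are EGFR at -0.62, AXL at 0.47, EPHA2 at 0.93 and DDR1 at 0.62.

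Of the EGF family ligands, 10 of 11 were measured and 5 were bright enough to be tested. With TGFb1 1 fell and 0 rose, with added acriflavine 2 rose and 0 fell, and with added valproate 3 rose and 0 fell. Epiregulin (EREG), a ligand of EGFR and ERBB4, was at 8.10 ± 0.334 (SD, n = 4) in the control, 6.32 ± 0.455 (n = 4) with TGFb1, 8.12 ± 0.101 (n = 3) with acriflavine and 8.11 ± 0.153 (n = 3) with valproate. Its highest TGFb1 array, 6.83, lay below the lowest array of each other group. That array was also below the brightness limit of 6.89 for a mean over all arrays, which EREG passed only through the other groups. The difference was -1.77 with TGFb1 (adjusted p = 3.31e-05), and the rises over TGFb1 were 1.79 with either agent (adjusted p = 2.01e-05 and 3.79e-05), which share the TGFb1 arrays.

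TGFA rose by 0.84 with valproate (adjusted p = 0.00288) and was at -0.26 with acriflavine (adjusted p = 0.271). NRG2, a neuregulin, rose by 0.87 with acriflavine and by 0.52 with valproate. HBEGF was at 0.46, -0.52 and 0.37 and NRG1 at -0.18, -0.71 and -0.04 in the 3 main comparisons, and neither was called. EGF, BTC, EPGN, NRG3 and NRG4 were below the limit, and AREG was not analysed here. Beside the EGFR means of 10.5 to 10.6 in all 3 treated groups, EREG had its low mean in the TGFb1 group; whether their patterns differ was not tested.

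MET, the receptor for hepatocyte growth factor, was at 11.73, 11.92, 11.99 and 11.87 in the control and 12.16, 11.58, 12.21 and 11.62 with TGFb1. It was at 11.86, 11.80 and 12.02 with acriflavine and 11.55, 11.67 and 11.42 with valproate. The TGFb1 arrays fell into a higher and a lower pair, 1 of which reached into the range of the valproate arrays, while every valproate array lay below every control array.

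The difference with TGFb1 was 0.01 ± 0.137 (adjusted p = 0.961) and acriflavine minus TGFb1 0.00331 ± 0.148 (adjusted p = 0.988). Valproate minus TGFb1 was -0.35 ± 0.148 (adjusted p = 0.0949), and it was -0.43 without both replicates 4, where it passed (adjusted p = 0.0231). All 6 MET probe sets had a negative difference with valproate, from -0.28 to -0.49. Its ligand HGF was dim in every group (4.93 to 5.04), while SPINT1, an inhibitor of the proteases that activate HGF, fell by 1.21 with TGFb1 and rose by 2.78 with acriflavine and 1.95 with valproate over TGFb1 (adjusted p = 1.24e-05, 1.05e-08 and 4.38e-07). ST14, a protease that SPINT1 inhibits, rose in the same 3 comparisons by 0.61, 0.80 and 0.39.

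AXL, a receptor of the TAM family that binds GAS6, was called higher when acriflavine was added to TGFb1. It was at 12.34, 12.11, 12.38 and 11.89 in the control, 12.11, 11.84, 12.11 and 11.31 with TGFb1, 12.34, 12.26 and 12.33 with acriflavine and 11.61, 11.73 and 11.69 with valproate. The acriflavine arrays lay above every TGFb1 array, by 0.15 or more between the nearest ones, and the valproate arrays lay below every control array. The replicate 4 array was the lowest of its group both in the control and with TGFb1.

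Acriflavine minus TGFb1 was 0.47 ± 0.17 for AXL, a 1.39-fold higher intensity (adjusted p = 0.0378). It was 0.29 without both replicates 4, where it passed (adjusted p = 0.0139), and without TGFb1 replicate 4 alone it was also 0.29 and did not pass (adjusted p = 0.0532). The call was lost too with the mean of both probe sets (0.30, adjusted p = 0.216), in the fit of the 2 groups alone (adjusted p = 0.0921) and without TGFb1 replicate 2 or any 1 of the acriflavine arrays (adjusted p of 0.0574 to 0.1). The second AXL probe set differed by 0.13 (adjusted p = 0.724 over all probe sets).

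TGFb1 minus control was -0.34 ± 0.157 for AXL (adjusted p = 0.158), lower in 4 of 4 same-numbered pairs, and passed with the replicate block (adjusted p = 0.0103) and without both replicates 4 (-0.26, adjusted p = 0.0479). Valproate minus TGFb1 was -0.17 ± 0.17 (adjusted p = 0.517; -0.34 and adjusted p = 0.00712 without both replicates 4). Valproate with TGFb1 was below the control by 0.50 (adjusted p = 0.0318; lost with the mean of both probe sets and without control replicate 1 or 3 or any valproate array, adjusted p of 0.0623 to 0.0988). The order of the means was acriflavine, control, TGFb1 and valproate. In the fit of group means alone no neighbours in it differed beyond their spread. With the replicate block valproate minus TGFb1 was -0.30 and passed (adjusted p = 0.0213 by limma). The block does not stand for pairs there, as same-numbered valproate and TGFb1 arrays correlated by -0.489, -0.435 and -0.185.

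The ligands of AXL and of its TAM relatives were looked at beside it. GAS6 was at 7.97 ± 0.148 (SD, n = 4) in the control, 7.98 ± 0.078 (n = 4) with TGFb1, 7.26 ± 0.0732 (n = 3) with acriflavine and 8.10 ± 0.0915 (n = 3) with valproate. GAS6 fell by 0.72 with acriflavine (adjusted p = 2.64e-05 by limma) and was not called with valproate. PROS1, protein S, a ligand of the related receptors TYRO3 and MERTK, fell by 1.15 with acriflavine and rose by 1.31 with valproate (adjusted p = 6.90e-05 and 3.91e-05). The receptor MERTK was at 9.79 ± 0.341 (n = 4), 8.48 ± 0.0972 (n = 4), 9.88 ± 0.126 (n = 3) and 8.58 ± 0.205 (n = 3) in the same order of groups, that is, 1.31 lower with TGFb1 (adjusted p = 2.55e-05) and 1.40 higher with acriflavine (adjusted p = 9.87e-06). AXL and MERTK had their higher means in the control and acriflavine groups, and their ligands GAS6 and PROS1 had their lowest mean in the acriflavine group.

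FGFR1, a receptor of fibroblast growth factors, was not called in any comparison. It was at 10.10, 9.63, 9.97 and 9.59 in the control, 9.88, 9.84, 9.93 and 9.54 with TGFb1, 9.82, 9.81 and 9.85 with acriflavine and 9.94, 9.92 and 9.92 with valproate. The 4 groups overlapped around 9.9, except that the 3 acriflavine arrays lay just below the 3 valproate arrays. The differences were -0.03 ± 0.114 with TGFb1 (adjusted p = 0.906), 0.03 ± 0.124 with acriflavine (adjusted p = 0.886) and 0.13 ± 0.124 with valproate (adjusted p = 0.479). Of the 25 FGF ligands and co-receptors 7 were tested. Among them FGF2, the basic fibroblast growth factor, was at -0.44, 0.58 and -0.43 in the 3 main comparisons and was not called, the heparan sulfate carrier SDC1 rose by 1.12 with TGFb1 (adjusted p = 1.01e-06) and SDC4 fell by 0.91 with TGFb1 and rose by 0.75 with acriflavine (adjusted p = 3.98e-05 and 0.000146).

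EPHA2, a receptor for A-type ephrins on neighbouring cells, rose when acriflavine was added to TGFb1. It was at 11.77, 11.89, 11.91 and 11.67 in the control, 11.92, 11.95, 11.84 and 10.99 with TGFb1, 12.60, 12.61 and 12.60 with acriflavine and 11.71, 11.71 and 11.66 with valproate. The 3 acriflavine arrays lay above the arrays of all other groups and differed from one another by about 0.01. TGFb1 replicate 4 lay apart from the other arrays of its group.

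Acriflavine minus TGFb1 was 0.93 ± 0.179 for EPHA2, a 1.90-fold higher intensity (adjusted p = 0.000873), and 0.70 without both replicates 4 (adjusted p = 8.82e-07). The second probe set gave 1.02. The rise passed in every setting tried, and against the control it was 0.79 ± 0.179 (adjusted p = 0.00241; 0.74 without both replicates 4). With TGFb1 alone EPHA2 was at -0.14 ± 0.165 against the control (adjusted p = 0.624) and 0.04 without both replicates 4. Valproate minus TGFb1 was 0.02 ± 0.179 (adjusted p = 0.955), and without both replicates 4 it turned to -0.21 and passed (adjusted p = 0.0157). With all arrays it was also negative with the mean of probe sets (-0.0381) and with centred arrays (-0.00608), so its direction was not settled.

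The membrane-bound ligands of EPHA2 included genes that rose in the same comparison. Of 8 ephrins 7 were tested. With TGFb1 1 rose and 0 fell, with acriflavine 3 rose and 2 fell, and with valproate 5 rose and 0 fell. EFNA1, the ligand commonly paired with EPHA2, was at 10.1 ± 0.321 (SD, n = 4), 10.3 ± 0.143 (n = 4), 11.5 ± 0.0837 (n = 3) and 10.7 ± 0.339 (n = 3) in the order control, TGFb1, acriflavine and valproate, and rose by 1.18 with acriflavine (adjusted p = 0.0001). EFNA4 rose by 1.09 with acriflavine (adjusted p = 0.0158), although 1 TGFb1 array, at 7.91, lay above its acriflavine arrays. EFNA5 fell by 0.38 with acriflavine and rose by 0.33 with valproate, and EFNA3 rose by 0.41 with valproate. EFNB2, a ligand of EPHB receptors, rose by 0.92 with TGFb1 (adjusted p = 0.00536 by limma) and by 0.63 with valproate. EFNB1 rose by 0.57 with acriflavine and by 0.50 with valproate, and EFNB3 fell by 0.48 with acriflavine and rose by 0.82 with valproate.

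DDR1, a receptor that is activated by collagen, was higher with valproate. It was at 10.66, 10.83, 10.70 and 11.64 in the control, 11.02, 11.24, 11.22 and 11.85 with TGFb1, 11.42, 11.26 and 11.18 with acriflavine and 11.93, 11.90 and 12.03 with valproate. The 3 valproate arrays lay above all other arrays, the nearest being TGFb1 replicate 4. As for RET, the replicates 4 were the highest arrays of their groups.

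Valproate minus TGFb1 was 0.62 ± 0.221 for DDR1, a 1.54-fold higher intensity (adjusted p = 0.0469), and all 4 probe sets were positive (0.44 to 0.62). The difference was 0.79 without both replicates 4 (adjusted p = 7.53e-06). The call was lost with no brightness limit (adjusted p = 0.0565), with arrays centred on their medians (0.59, adjusted p = 0.0534), and without TGFb1 replicate 1, 2 or 3 or any 1 of the valproate arrays (adjusted p of 0.0864 to 0.129). Against the control valproate with TGFb1 was 0.99 higher (1.99-fold, adjusted p = 0.00297; 1.22 without both replicates 4).

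DDR1 differed by 0.38 ± 0.204 between TGFb1 and control (adjusted p = 0.233), higher in 4 of 4 same-numbered pairs (0.37, 0.41, 0.53 and 0.20). It passed with the replicate block (adjusted p = 0.00585) and without both replicates 4 (0.43, adjusted p = 0.00196). The other 3 probe sets gave 0.34, 0.38 and 0.29, and the first and second of these passed over all probe sets. Acriflavine minus TGFb1 was -0.05 ± 0.221 (adjusted p = 0.891). The means ran from control through acriflavine and TGFb1, which did not differ beyond their spread in the fit of group means alone, to valproate. Without both replicates 4, acriflavine with TGFb1 was above the control by 0.56 and passed (adjusted p = 8.66e-05).

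The collagen ligands of DDR1 rose with TGFb1. COL1A1, the main chain of type I collagen, was at 8.48 ± 0.424 (SD, n = 4) in the control, 12.2 ± 0.612 (n = 4) with TGFb1, 8.28 ± 0.0668 (n = 3) with acriflavine and 12.8 ± 0.0684 (n = 3) with valproate. It rose by 3.68 with TGFb1 (adjusted p = 3.35e-07) and fell by 3.88 with acriflavine (adjusted p = 1.96e-07). COL3A1 rose by 0.73 and fell by 2.22 in the same comparisons, and COL4A1 rose by 2.56 with TGFb1 and stayed at -0.02 with acriflavine (adjusted p = 0.938). In all, 8 ligands of MET, AXL and DDR1 were measured and 6 tested: 4 rose and 0 fell with TGFb1, 0 rose and 4 fell with acriflavine, and 3 rose and 1 fell with valproate. DDR2, the second collagen receptor, was at 8.13 ± 0.113 (n = 4), 7.46 ± 0.684 (n = 4), 5.94 ± 0.403 (n = 3) and 7.63 ± 0.311 (n = 3), and fell by 1.52 with acriflavine (adjusted p = 0.000923). The acriflavine mean was below the brightness limit of 6.89, which DDR2 passed by its mean over all arrays.

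**Figure D3:**
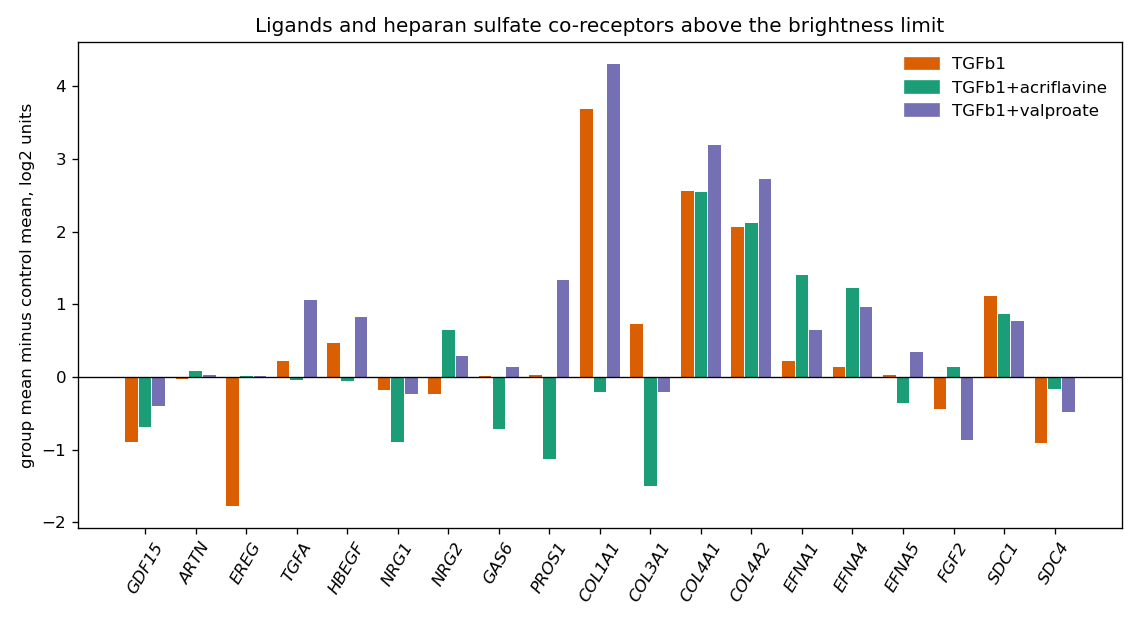
Selected ligands and heparan sulfate co-receptors of the 9 receptors, from the tested genes, as bars of the group mean minus the control mean in log2 units. Each treated group has 1 bar, without error bars. Not every tested ligand or co-receptor is shown, and EFNA3 is among those left out. SDs and SEs of the genes discussed are in the text. EREG is below the control in the TGFb1 group alone, COL1A1 is far above it with TGFb1 and with valproate but not with acriflavine, and EFNA1 is highest with acriflavine.

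The 2 agents were also set against each other. Acriflavine with TGFb1 was above valproate with TGFb1 for RET by 2.49 (a description), for AXL by 0.64 ± 0.182 (adjusted p = 0.00957) and for EPHA2 by 0.91 ± 0.191 (adjusted p = 0.00126), and below it for DDR1 by 0.67 ± 0.236 (adjusted p = 0.03; lost without acriflavine replicate 2 or 3 or any valproate array, adjusted p of 0.058 to 0.0859). Over all genes 28.3% were higher and 23.3% lower in this comparison. The other 4 tested receptors did not pass, with MET at 0.35 ± 0.158 (adjusted p = 0.0809) and EGFR at -0.08 ± 0.224 (adjusted p = 0.791). Against the control, 1 receptor was higher (EPHA2) and 1 lower (EGFR) with TGFb1 and acriflavine, beside 26.1% and 21.6% of all genes, and of the 7 receptors other than RET and ERBB3 1 was higher (DDR1) and 1 lower (AXL) with TGFb1 and valproate, beside 16.9% and 19.8%.

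**Figure D4:**
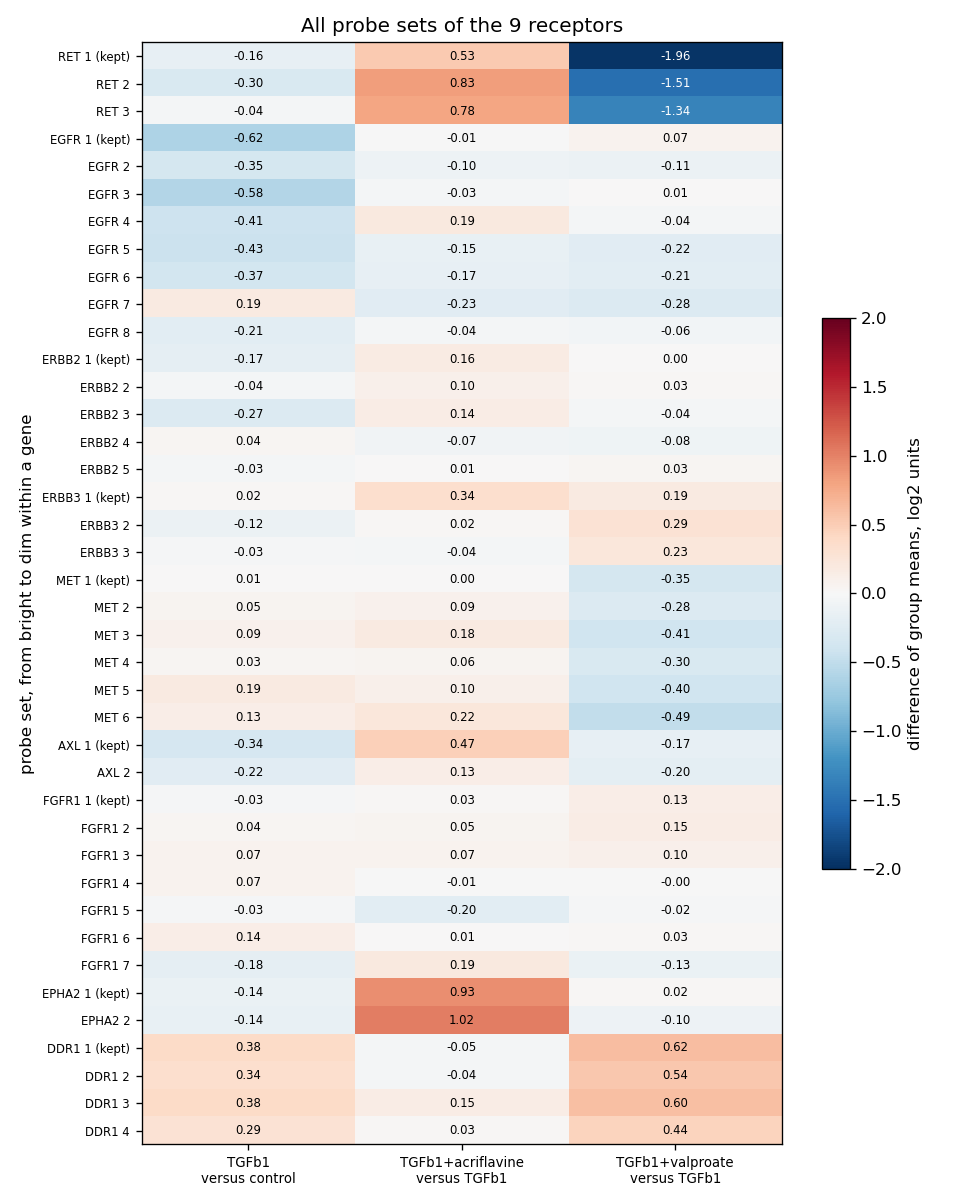
Difference of group means in log2 units for all 40 probe sets of the 9 receptors, in rows ordered from bright to dim within a gene and 3 columns of comparisons, coloured from blue (lower) to red (higher). The 3 RET probe sets are all negative with valproate, both EPHA2 probe sets are close to 1 with acriflavine, and all 4 DDR1 probe sets are positive with valproate.

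Among the other receptor tyrosine kinases 47 of 49 were measured and 17 were tested. With TGFb1 2 rose and 3 fell, with acriflavine 7 rose and 3 fell, and with valproate 5 rose and 0 fell, and the medians were 0.06, 0.00425 and 0.16. With TGFb1 the greatest differences were the fall of MERTK, a fall of 0.62 in MST1R, the receptor for macrophage-stimulating protein and the closest relative of MET, and rises of 0.44 in FGFR3 and 0.37 in TYRO3. With acriflavine FGFR3 rose by 1.67 (adjusted p = 2.34e-06) and ROR1, a receptor for WNT5A, by 0.77. With valproate FGFR4 rose by 0.75, ROR2 by 0.45 and the less studied kinases AATK and LMTK3 by 0.55 and 0.48.

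Among 25 feedback inhibitors and degradation factors 24 were measured and 20 tested. With TGFb1 3 rose and 3 fell, with acriflavine 5 rose and 5 fell, and with valproate 2 rose and 0 fell, and the medians were -0.04, 0.03 and 0.04. SPRY1, an inhibitor of signalling to ERK, fell by 1.11 with TGFb1 and its relative SPRY4 rose by 0.62. With acriflavine CBLB, a ubiquitin ligase that marks active receptors for degradation, fell by 1.34 (adjusted p = 3.82e-06), its relative CBL by 0.48, and ERRFI1, a direct inhibitor of EGFR family kinases, by 0.65 (adjusted p = 7.00e-06), while SOCS2 rose by 1.21. RNF41, a ubiquitin ligase of ERBB3, fell by 0.86 with acriflavine.

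Of 13 genes known as outputs of ERK signalling 11 were tested. With TGFb1 2 rose and 0 fell, with acriflavine 3 rose and 3 fell, and with valproate 2 rose and 0 fell. ETV4, a transcription factor induced by ERK, rose by 1.17 with acriflavine and by 1.07 with valproate (adjusted p = 0.000121 and 0.000373), and DUSP6, the ERK phosphatase, rose by 0.71 with acriflavine, while its fellow outputs MYC and ETV5 fell by 0.65 and 0.58. The outputs did not move together with acriflavine, and their median there was 0.01.

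Of the adaptors and RAS-ERK kinases 18 of 31 were tested. With TGFb1 0 rose and 0 fell at the adjusted threshold by limma, with acriflavine 2 rose and 5 fell, and with valproate 4 rose and 0 fell. GRB10, an adaptor that binds RET and other receptors, fell by 1.39 with acriflavine (adjusted p = 3.70e-06), and the adaptor SHC2 fell by 0.73 with acriflavine and rose by 0.84 with valproate. Of 24 PI3K-AKT and other effectors 19 were tested, with 3 up and 6 down with TGFb1, 4 up and 3 down with acriflavine and 2 up and 3 down with valproate. The kinase FYN fell by 1.75 with acriflavine and rose by 1.58 with valproate. With TGFb1 PIK3CD rose by 0.96 and STAT3 fell by 0.79, and with valproate STAT5B and STAT5A fell by 0.91 and 0.68. Of 12 sheddases and protease cofactors 10 were tested. With TGFb1 1 rose and 3 fell, with acriflavine 6 rose and 1 fell and with valproate 4 rose and 0 fell, among them ADAM15, a membrane metalloprotease, by 1.35 with acriflavine and by 0.69 with valproate.

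The genes most like each receptor were found by Pearson correlation over the 14 arrays, among all tested genes, as a description. The arrays share 4 groups and the replicate numbers, so a high value reflects the same group means. For RET they were JADE2 (0.959), TAF5L (0.948) and RBM22 (0.946). JADE2 was at 10.1 in the control, 10.1 with TGFb1, 10.2 with acriflavine and 9.21 with valproate. For EGFR they were ZCCHC9 (0.966), IRS2 (0.962) and TNRC6C (0.95), and for ERBB2 HELZ2 (0.939), SHISA5 (0.929) and CRAT (0.924). MET was most like WDR43 (0.905), SEH1L (0.861) and YWHAZ (0.832), and AXL most like DHRS11 (0.971), CIRBP (0.962) and ADM (0.95). FGFR1 was most like ZNF622 (0.904), VPS37B (0.868) and SNAPC4 (0.861). For EPHA2 the genes were SOX13 (0.969), TENT5B (0.965) and ZFAND2A (0.964), and for DDR1 ORMDL3 (0.967), TIAM1 (0.955) and FKBP7 (0.951). The lists were not stable: 10 of these 24 genes were among the 3 most alike by Spearman correlation and 5 of 24 over the 12 arrays of replicates 1 to 3.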

How the data were processed

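Gene expression was measured on Affymetrix 3-prime arrays from 200 ng of RNA per sample. The deposited values are on the log2 scale, and the submitters' processing notes name RMA and affy 1.44.0; no other step by the authors is given in the sources used here. Precision is limited by the array number. The labels call the replicates biological.

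Of 49193 probe sets, 44898 were assigned to 1 gene by the platform annotation, 1825 to several and 2470 to none. Each gene was read from its brightest probe set, by the mean of its log2 values. The 40% of genes with the lowest means were left out, which left 10877 genes with a mean of at least 6.89. A model with 1 mean per group was fitted to all 14 arrays (limma 3.58.1 in R 4.3.3, lmFit and eBayes), with p-values adjusted by Benjamini-Hochberg over the genes tested and a threshold of 0.05. Values for single probe sets came from the same model over all 44898. The fit was tested on simulated data.

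The receptors and gene lists were chosen with earlier results of these data known. The rule for named genes took all 9 receptors, their ligands and co-receptors, up to 4 genes per list with the greatest change among those that passed in each main comparison, and the 3 genes most correlated with each receptor. Not every gene that this rule took is named in the text, so the genes printed are a selection from it. RET was left out of tests and counts that use the valproate arrays. A gene named beyond this rule (CBL and ERRFI1 with acriflavine, and others by their role) was chosen with its values in view.

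The replicate numbers were taken to pair control and TGFb1 arrays, because the deviations of same-numbered arrays from their group means correlated by over 0.1 in all 4 pairs (0.387, 0.359, 0.543 and 0.705). Arrays of different numbers were not compared, and the replicates 4, which deviated together, enter both group means. These correlations therefore cannot show that the numbers pair the arrays, and the block is an assumption. Other groups were not paired by this check. Same-numbered arrays correlated by -0.0272, 0.467 and 0.0861 between acriflavine and TGFb1. Between valproate and TGFb1 they correlated by -0.489, -0.435 and -0.185. Alternatives changed the brightness limit, the summary of probe sets, the scaling, the variance model, the arrays in the fit, the block and the replicates 4, or left out 1 array at a time. Promoter windows came from RefSeq (GRCh38.p14), with Python 3.11.15 for the motif search.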

Additional observations from a re-analysis of the deposited data

Results flagged for a closer look

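In groups of 4 arrays, the array at an end of its group was compared with the others by the ratio of its gap to the whole range, with Dixon's 95% critical value as the limit. For EGFR, control replicate 4 (10.78 on the log2 scale) lay below the other 3 control arrays, with a ratio of 0.894. For EPHA2, TGFb1 replicate 4 (10.99) lay below the other 3 TGFb1 arrays, with a ratio of 0.879. These were 2 of 18 groups looked at, where chance gives about 1 in 20, and both were replicates 4. Without both replicates 4, EGFR in TGFb1 versus control was at -0.52 in place of -0.62, and EPHA2 with acriflavine versus TGFb1 at 0.70 in place of 0.93.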

How the results depend on the processing

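Of 811 tested differences of receptors under an alternative, 658 kept their direction and their side of the threshold, 42 newly passed, 40 no longer passed and 71 changed sign. RET was chosen by its low values in the valproate arrays, which all lay below every other array. Its sign there, the same in all 53 such values, was fixed by that choice and is a description, not a check. ERBB3, which was not tested, changed sign in 5 of 108. The rise of EPHA2 with acriflavine passed in all 18 alternatives against TGFb1 and against the control, as did DDR1 with valproate against the control. The calls lost under at least 1 alternative were EGFR with TGFb1 (8 of 19) and with acriflavine against the control (5 of 18), AXL with acriflavine against TGFb1 (7 of 18), with valproate against the control (6 of 18) and between the 2 agents (1 of 17), and DDR1 with valproate against TGFb1 (8 of 18) and between the agents (5 of 17). The cause of a change was not tested beyond what an alternative leaves out. There are 3 or 4 arrays a group, ERBB3 was below the brightness limit, and array intensities do not separate fewer expressing cells from less RNA per cell.

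Receptors called in TGFb1 versus control were 1 as reported, 0 with no brightness limit, with the mean of probe sets and with only the 2 groups compared, 3 without both replicates 4 and 3 with a term for the replicates 4. All genes called there were 1997 as reported, 963 with only the 2 groups, 3155 without both replicates 4 and 3547 with the term. In acriflavine with TGFb1 versus TGFb1 receptors called were 2 as reported, 1 with the mean of probe sets or only the 2 groups, and 3 without both replicates 4, with the term or with the block, RET being the one added. Leaving RET aside, in valproate with TGFb1 versus TGFb1 they were 1 as reported, 0 with no brightness limit or with centred arrays, 4 without both replicates 4 and 3 with the term, and all genes called were 3402 as reported, 2263 with only the 2 groups and 5208 without both replicates 4. Against the control, receptors called were 4 for acriflavine (2 as reported) and, RET aside, 4 for valproate (2 as reported) without both replicates 4 and with the term, and 4 for valproate with only the 2 groups. Where counts of all genes called are given, they moved between settings too. Receptor counts given without them, here and below, are therefore not results about the receptors.

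With the replicate block, which takes same-numbered control and TGFb1 arrays as pairs, TGFb1 versus control had 3 receptors and 3148 genes called. In the other comparisons the numbers were not taken to pair the arrays. There the block gave 3 receptors for valproate versus TGFb1, 4 for acriflavine versus control and 4 for valproate versus control. With the block or with the term, which gave equal values here, differences near 0 changed sign for MET (-0.0432), FGFR1 (-0.0533) and DDR1 (0.153) in acriflavine versus TGFb1, for EGFR (-0.0928), ERBB2 (-0.0242) and EPHA2 (-0.117) in valproate versus TGFb1, and for MET (-0.0299), AXL (-0.00596) and FGFR1 (-0.0795) in acriflavine versus control.

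Without both replicates 4 the sign changed for EPHA2 (0.0445) and the untested ERBB3 (-0.0676) in TGFb1 versus control, for MET (-0.0858), FGFR1 (-0.0572) and DDR1 (0.124) in acriflavine versus TGFb1, for EGFR (-0.141), ERBB2 (-0.0598) and EPHA2 (-0.207) in valproate versus TGFb1, and for ERBB2 (0.000197) and FGFR1 (-0.0756) in acriflavine versus control. With the mean of probe sets it changed for FGFR1 (0.0129) and ERBB3 (-0.0454) in TGFb1 versus control, DDR1 in acriflavine versus TGFb1 (0.0237), EGFR (-0.105), ERBB2 (-0.0113) and EPHA2 (-0.0381) in valproate versus TGFb1 and EGFR (0.037) and ERBB3 (-0.128) in acriflavine versus valproate. Centred arrays changed it for ERBB2 (-0.0239) and EPHA2 (-0.00608) in valproate versus TGFb1 and ERBB2 in acriflavine versus control (0.0154), and repeated quantile normalisation for MET in acriflavine versus TGFb1 (-0.0258) and MET (-0.0133) and FGFR1 (-0.0187) in acriflavine versus control.

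Leaving out 1 array at a time, receptors called ranged from 0 to 2 in TGFb1 versus control, 1 to 2 in acriflavine versus TGFb1, 0 to 4 in valproate versus TGFb1, 1 to 4 in acriflavine versus control and 1 to 3 in valproate versus control, and genes called in TGFb1 versus control from 1387 to 3149, the latter without TGFb1 replicate 4. Differences that changed sign ranged in TGFb1 versus control from -0.23 to 0.0909 for EPHA2, -0.103 to 0.0667 for FGFR1, -0.092 to 0.118 for MET, -0.0749 to 0.0634 for ERBB3 and -0.431 to 0.257 for RET. In acriflavine versus TGFb1 they ranged from -0.149 to 0.124 for DDR1, -0.221 to 0.117 for EGFR, -0.0572 to 0.0711 for FGFR1 and -0.101 to 0.109 for MET, in acriflavine versus control from -0.0402 to 0.00821 for ERBB2, -0.0756 to 0.0938 for FGFR1 and -0.0478 to 0.063 for MET, and in valproate versus TGFb1 from -0.141 to 0.198 for EGFR, -0.207 to 0.113 for EPHA2 and -0.0598 to 0.0571 for ERBB2.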
